A study of Rattus norvegicus with 16 samples.

Results

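The transcripts described here encode proteins of the hepatic lipid droplet, and they were taken as the rows of the deposited table whose gene symbol is Cidea, Cideb, Cidec, Plin2, Plin3, Plin4, Plin5, Pnpla2, Pnpla3 or G0s2. Of the 10 listed symbols, 9 were found among the 9645 genes of the table, and Pnpla2 was not analysed here. The low-count filter (10 or more normalized counts in 8 or more of the 16 libraries) left 8004 genes for testing, among them 8 of the members, with Plin4 below the filter. The libraries came from whole livers of male obese Zucker rats, 8 fed a diet with casein (CAS, the control protein) and 8 fed a diet with soy protein isolate (SPI, with high isoflavones). Rats arrived at 6 weeks of age, were acclimated for 1 week, and both groups were then fed for 16 weeks, with 1 library per rat, named by diet and rat number (CAS 1, SPI 1 and so on). The comparison asks which liver transcripts differ between the protein sources in this strain, in which all rats of both diets are obese and prone to fatty liver.

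Lipid droplets store triglyceride and cholesteryl ester under a coat of phospholipid and protein. CIDE proteins sit where droplets touch and move lipid from the smaller to the larger one, or, for Cideb in hepatocytes, help load lipid onto very-low-density lipoprotein. Perilipins coat the droplet surface and limit the access of lipases, and the lipase Pnpla2 (ATGL), with its relatives and its inhibitor G0s2, sets how fast the stored triglyceride is released.

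Total reads in the table were 17602306 to 21632979 per CAS library and 14901365 to 21517766 per SPI library. Hepatocyte transcripts were abundant in every library, as seen for Ahsg (fetuin A), at a normalized count of 146427 to 212045. On the first principal component (19.1% of the variance), 5 CAS libraries lay at -41.3 to -26.1 and the SPI libraries at 10.4 to 26.7, while CAS 4, CAS 6 and CAS 7 had intermediate scores of 1.18 to 2.73. Values without these 3 libraries, a choice made after seeing the data, are given where they change the call of a member, another droplet gene or a regulator. Calls of the other genes described, such as Lbp, Lcn2 and Fabp4, were not examined without these libraries. Normalized counts are reads divided by 1 size factor per library. They were compared between diets within a gene, or as a ratio or sum of genes. Levels of different genes were not compared, because no transcript length entered the counts. In whole-liver RNA, fewer cells of a type and less RNA per cell cannot be told apart.

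Among the 8 members tested, Cidea and Plin3 were lower with SPI than with CAS feeding at an adjusted p under 0.05 (limma), none was higher, and the other 6 members missed the threshold. Of all genes tested, 2.9% were lower and 1.97% were higher by the same rule. At an unadjusted p under 0.05, 3 members were lower (Cidea, Plin3 and Pnpla3), against 10% of all genes tested, and 1 was higher (Cideb), against 8.82%. Both edgeR and DESeq2 called the same 2 members lower and 0 higher. With a fold above 1.3 added, the same 3 were lower, against 6.75% of all genes tested. The median log2 fold change (SPI over CAS) was -0.21 over the 8 members and 0.01 over all genes tested, with 6 members below 0 and 2 above. The values of each library are drawn for the 8 genes in separate panels.

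**Figure D1:**
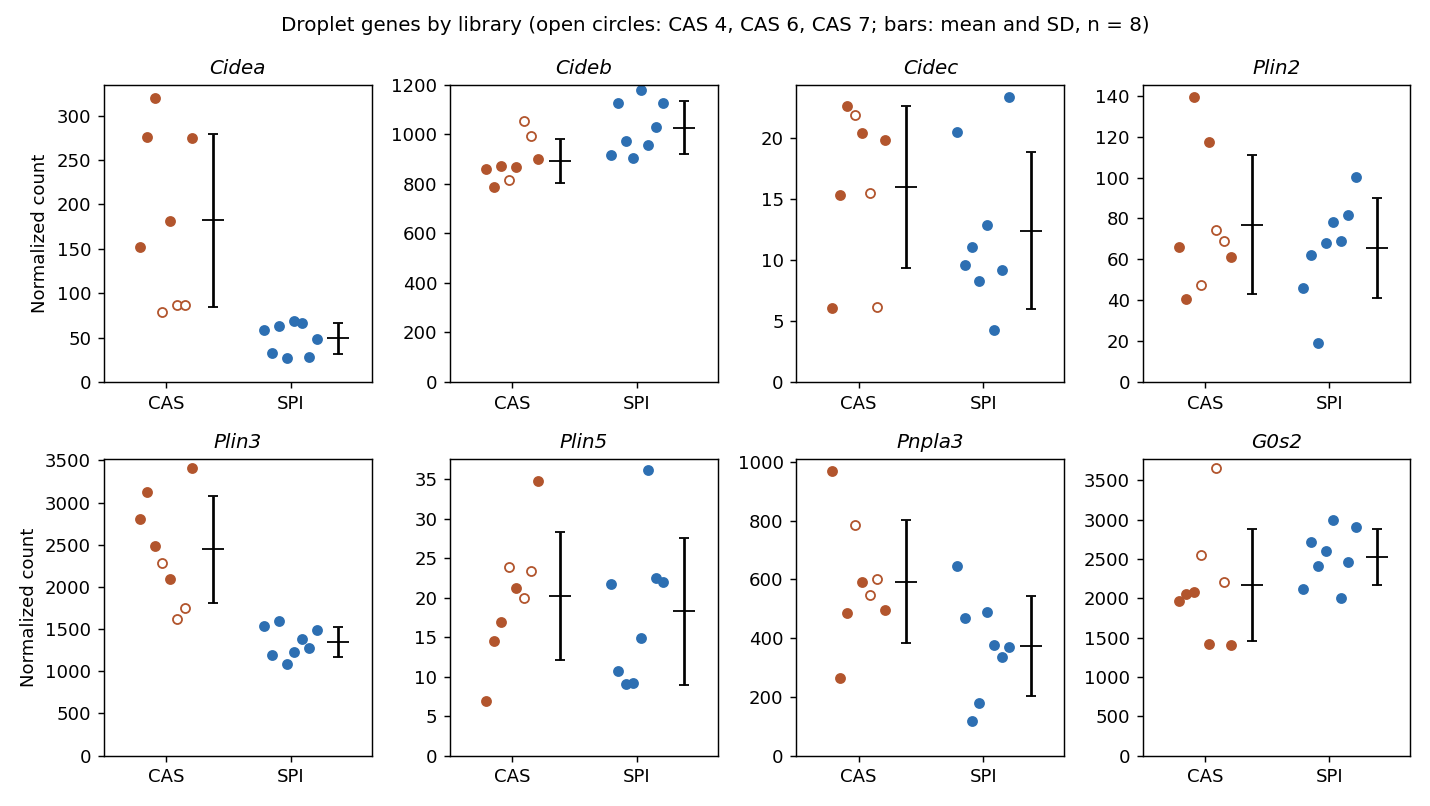
Normalized count (linear axis from 0) of the 8 tested droplet genes, with 1 point per rat for 8 CAS and 8 SPI libraries, open circles for CAS 4, CAS 6 and CAS 7, and bars for the mean and SD. Cidea and Plin3 show no overlap between the diets, whereas the other 6 genes overlap.

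Cidea, a CIDE protein that is scarce in lean rodent liver and promotes droplet fusion and enlargement, had the largest difference among the members. In CAS-fed rats its normalized count had a lowest value of 78.5, a median of 167 and a highest value of 320.2, with a mean of 182 ± 97.3 (SD, n = 8). In SPI-fed rats the lowest, median and highest values were 27.5, 53.4 and 68.2, with a mean of 49.2 ± 17.2 (SD, n = 8). Every SPI library lay below every CAS library, a separation that 0.55% of all genes tested showed. The ratio of the CAS to the SPI mean was 3.71, and the log2 fold change was -1.73 (standard error, SE, 0.31, 95% interval -2.37 to -1.08, limma adjusted p = 0.00249). Reads behind these values were few, between 28 and 342 per library. Cidea was among the genes that the study picked for a PCR assay because of a large difference in these same livers, so its difference is a description and no independent support. The study reported Cidea as lower in SPI-fed rats by that PCR assay too. When the 4 libraries with rat numbers 2 and 8 were left out, because the sheet numbers in their labels break the order that sheet and lane numbers follow in the other libraries, the log2 fold change was -1.39 and the adjusted p was 0.0510 (limma).

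The CAS-fed rats differed widely among themselves in Cidea. CAS 4, CAS 6 and CAS 7 held its lowest CAS values, at 78.5, 87.3 and 86.4, whereas the other 5 lay between 152 and 320.2. Even these 3 libraries were above the highest SPI library, at 68.2. The acute phase transcript Lbp (lipopolysaccharide binding protein) was also lowest in these 3 CAS libraries, which were singled out after the data were seen. Its normalized count was 2494, 2572 and 2476 in CAS 4, CAS 6 and CAS 7, between 5346 and 9302 in the other CAS libraries, and between 1942 and 3387 in SPI libraries. Thus Lbp in CAS 4, CAS 6 and CAS 7 was within the SPI range only through SPI 3, at 3387. The next SPI library was at 2387, below these 3 CAS libraries. Their Cidea was above every SPI library. Of 11 acute phase genes tested, 1 was lower (Lbp, log2 fold change -1.23, limma adjusted p = 0.0429) and 1 was higher (Fgg, a fibrinogen chain, 0.30, limma adjusted p = 0.0367). The list median was -0.06 after quantile normalization, which can alter the change of the most abundant of these genes. Lbp and Lcn2 were lower, and 3 genes higher, by edgeR and by DESeq2. Summed over the list, the normalized counts were 504281 to 673101 in CAS-fed rats and 524293 to 797405 in SPI-fed rats. Hp (haptoglobin) made up most of these sums, at means of 371516 and 375330, so they say little of Lbp or Lcn2. The part of acute phase genes in the Cidea difference was not tested. With CAS 4, CAS 6 and CAS 7 left out, the log2 fold change of Cidea was -2.26.

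Since Cidea is also a gene of fat tissue, markers of adipocytes were read beside it. Of 9 listed markers, 5 were in the table and 2 passed the filter, neither of them called. Fabp4, a fatty acid carrier that macrophages also express, had a mean of 260.0 ± 143 in CAS-fed and 89.1 ± 36.9 in SPI-fed rats, with its fitted log2 fold change at -1.31 and not past limma's threshold, though edgeR and DESeq2 each called it lower. It was at 63.6 in CAS 6 and 52.9 in CAS 7, as low as in SPI libraries. Cfd (adipsin) had a log2 fold change in the other direction, 0.49 (limma adjusted p = 0.168). Summed counts over the list were 347 to 703 in CAS-fed and 331 to 625 in SPI-fed rats. Fabp4 and Cfd, whose fold changes had opposite signs, made up most of these sums. Of the markers that define fat cells, Adipoq (adiponectin) was 0 to 38.6 in CAS and 1.00 to 55.0 in SPI libraries. It was high only in CAS 3 (38.6), SPI 4 (55.0) and SPI 8 (42.6), and at most 6.46 elsewhere. Cidea in CAS 3, SPI 4 and SPI 8 was 320.2, 27.5 and 48.1. Retn (resistin) reached at most 8.47 in CAS and 4.08 in SPI libraries, and Lipe (hormone-sensitive lipase) at most 6.10 and 7.15. Plin1 and Lep were not analysed here.

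Plin3, the perilipin that moves from the cytosol to nascent droplets, had the smallest p-value of the members. Its normalized count ranged from 1619 through a median of 2384 to 3404 in CAS-fed rats, with a mean of 2447 ± 635 (SD, n = 8). The SPI libraries ranged from 1081 through 1333 to 1594, with a mean of 1349 ± 182 (SD, n = 8). The diets did not overlap, with CAS 6 the lowest CAS library and SPI 3 the highest SPI library. The CAS mean was 1.81 times the SPI mean, and the log2 fold change was -0.90 (SE 0.14, 95% interval -1.19 to -0.61, limma adjusted p = 0.000915, rank 18 of 8004 by p). Plin3 kept its call in each of 27 alternatives, with log2 fold changes of -1.13 to -0.74 and a highest adjusted p of 0.0115. CAS 4 had 2289 for Plin3, among the middle CAS values, whereas CAS 6 and CAS 7 had the lowest, 1619 and 1753.

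The promoters of Cidea, Plin3 and Cideb are shown because Cidea and Plin3 were the members that fell, and Cideb is the CIDE gene usually found in hepatocytes. Each run is 300 bases from RefSeq on build GRCr8, 5′ to 3′ on the gene's own strand, from 250 bases before to 50 after the annotated start, and capitals mark matches to the motifs searched. Cidea lies at chr18:63164567-63164866 (plus strand), Plin3 at chr9:1210163-1210462 (minus strand) and Cideb at chr15:33226358-33226657 (minus strand).
Cidea: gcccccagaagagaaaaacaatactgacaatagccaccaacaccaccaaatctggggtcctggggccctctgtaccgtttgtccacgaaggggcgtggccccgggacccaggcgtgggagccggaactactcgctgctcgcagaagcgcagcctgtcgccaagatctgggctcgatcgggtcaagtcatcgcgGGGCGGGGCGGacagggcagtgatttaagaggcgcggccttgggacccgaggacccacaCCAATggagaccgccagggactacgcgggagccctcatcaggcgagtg
Plin3: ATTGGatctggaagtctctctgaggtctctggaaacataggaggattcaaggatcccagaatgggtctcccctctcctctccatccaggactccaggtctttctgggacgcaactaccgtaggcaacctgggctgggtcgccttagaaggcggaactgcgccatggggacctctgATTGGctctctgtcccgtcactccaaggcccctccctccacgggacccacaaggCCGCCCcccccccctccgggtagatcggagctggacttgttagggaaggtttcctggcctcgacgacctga
Cideb: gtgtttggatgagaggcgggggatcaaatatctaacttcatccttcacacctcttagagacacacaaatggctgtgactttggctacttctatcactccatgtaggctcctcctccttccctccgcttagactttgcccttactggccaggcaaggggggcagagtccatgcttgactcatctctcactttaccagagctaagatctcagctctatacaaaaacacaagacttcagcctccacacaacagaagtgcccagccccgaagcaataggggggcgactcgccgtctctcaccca
Both strands were searched for 6 motifs, namely the nuclear receptor core element AGGTCA, its direct repeat AGGTCANAGGTCA (N being any base, so that each match also holds the core element), the box known as TATA with the letters TATAAA, the box known by its letters CCAAT, the E-box with the letters CACGTG and the GC box with the letters GGGCGG. In Cidea, a pair of GC boxes overlapped by 1 base, starting 57 and 52 bases before the annotated start, and a CCAAT began 2 bases after it. In Plin3, CCAAT was matched on the opposite strand 250 and 75 bases before the start and a GC box, also on the opposite strand, 21 bases before it. Cideb held none of the 6 motifs. The G and C content was 64.0% in Cidea, 60.3% in Plin3 and 51.7% in Cideb, and the median over 33469 promoters was 51.7%.

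RefSeq gave 15 promoters for the 10 listed genes, since Plin2 and Plin4 have several that partly overlap or lie close together. A GC box was in 11 of the 15, in promoters of every listed gene but Cideb and Cidec, and 33.1% of all promoters held one. Nearly identical windows of Plin4 repeat the same GC box, and counted by gene it was in 8 of 10. CCAAT was in 5 of the 15 and in 37.5% of all promoters. The core element was in 2, those of Plin5 and G0s2, and in 16.2% of all promoters, and the E-box was in 1, of Plin2, and in 6.42%. The direct repeat was in none of the 15 and in 18 (0.0538%) of all promoters. TATAAA was also in none, and in 14.2% of all promoters. These matches describe letters in a short window on a newer build than the one named for the reads, and no binding was measured.

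The other CIDE genes did not pass the test. For Cideb, the normalized count was 786 to 1056 in CAS-fed rats, with a median of 869.7, and 904 to 1181 in SPI-fed rats, with a median of 1001. The diets overlapped, although 8 of 8 SPI libraries were above the CAS median. Means were 894 ± 89.4 (CAS) and 1028 ± 106 (SPI, SD, n = 8 each), and the log2 fold change of 0.19 (SE 0.08, 95% interval 0.01 to 0.36) did not pass the test (limma adjusted p = 0.227). Cidec, which forms the large droplets of white fat cells and is raised in steatotic mouse liver, had 4 to 24 reads per library. Its normalized count was 6.02 to 22.6 (median 17.6) in CAS-fed and 4.25 to 23.4 (median 10.3) in SPI-fed rats. The log2 fold change was -0.20 (95% interval -1.05 to 0.64, limma adjusted p = 0.837), and differences of that width are not resolved at this depth.

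Within a library, the ratio of Cidea to Cideb does not depend on the scaling of that library. It was 0.0826 to 0.368 in CAS-fed rats (mean 0.209) and 0.0278 to 0.0687 in SPI-fed rats (mean 0.0482), with no overlap. CAS 4, CAS 6 and CAS 7 had ratios of 0.0961, 0.0826 and 0.0871, again the lowest CAS values and again above every SPI library. The ratio of Cidec to Cideb overlapped between the diets, with means of 0.0182 (CAS) and 0.0120 (SPI). These are ratios of normalized counts of genes of unlike length, so their size says nothing of the balance of the proteins, and they were not tested.

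The remaining perilipins overlapped between the diets. Plin2 (adipophilin), the coat protein that fatty liver is best known for, had a normalized count of 40.4 to 139 (median 67.7) in CAS-fed rats and 19.0 to 100.3 (median 68.4) in SPI-fed rats. The medians were nearly equal, and SPI 3 was the lowest library. These values rest on 19 to 148 reads per library, few for a transcript that is usually abundant in fatty liver, and how completely the reads of Plin2 were counted was not tested, which also touches its ratios to other genes. The log2 fold change was -0.21 (SE 0.30, 95% interval -0.82 to 0.41, limma adjusted p = 0.759), and it was 0.014 without SPI 3. Plin5, which links droplets to mitochondria in oxidative tissues, had 8 to 42 reads per library. Its normalized count was 6.88 to 34.7 (median 20.6) in CAS-fed and 9.02 to 36.1 (median 18.3) in SPI-fed rats, and the log2 fold change was -0.10 (95% interval -0.88 to 0.68, limma adjusted p = 0.921). That sign turned when CAS 8, SPI 3 or SPI 4 was left out (0.032, 0.0041 and 0.043) and without CAS 4, CAS 6 and CAS 7 (0.077). Plin4, a perilipin of white fat and muscle, had 3 reads in all, 1 each in CAS 5, SPI 4 and SPI 7. Every library was below the floor of 3 reads, so no fold is given (two-sided exact permutation test over 12870 regroupings, p = 0.467). With reads in only 3 libraries, that test could not have reached a p under 0.05, so it says nothing of diet.

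Set against Plin3 within each library, Plin2 had a ratio of 0.0129 to 0.0562 in CAS-fed rats (mean 0.0341) and 0.0119 to 0.0676 in SPI-fed rats (mean 0.0501). The ranges overlapped, with 4 SPI libraries above the highest CAS library and SPI 3 below the lowest. The ratio of Plin5 to Plin2 had nearly equal means, 0.305 and 0.308. RefSeq places Plin4 and Plin5 side by side on chromosome 9, where Plin3 also lies.

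Pnpla3, a lipase relative on the droplet that is induced by feeding and whose human variant is known in fatty liver, was lower on average in SPI-fed rats without passing the adjusted test. The CAS libraries ranged from 265 to 968 (median 569) and the SPI libraries from 117 to 647 (median 373). The ranges overlapped widely, with 7 of 8 SPI libraries below the CAS median. Means were 592 ± 210 and 373 ± 170 (SD, n = 8 each), and the log2 fold change was -0.73 (SE 0.33, 95% interval -1.44 to -0.03, unadjusted p = 0.0416, limma adjusted p = 0.243). Over the 27 alternatives the adjusted p was 0.154 to 0.413. Its neighbour on chromosome 7, Pnpla5, a lipase of the same family, had a log2 fold change of -0.33 (limma adjusted p = 0.669). In both genes SPI 3 was the lowest library, at 117 for Pnpla3 and 225 for Pnpla5. A ratio of Pnpla3 to Pnpla5, added after the data were seen, had means of 0.653 (CAS) and 0.484 (SPI) and overlapped between the diets.

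G0s2, the inhibitor of Pnpla2, ranged from 1407 to 3664 (median 2072) in CAS-fed rats and from 1999.98 to 3003 (median 2531) in SPI-fed rats. CAS 6 was the highest of all 16 libraries and CAS 8 the lowest. Means were 2171 ± 716 and 2526 ± 354 (SD, n = 8 each), with a log2 fold change of 0.21 (SE 0.15, 95% interval -0.10 to 0.52, limma adjusted p = 0.484). Without CAS 4, CAS 6 and CAS 7 the log2 fold change was 0.44 and the adjusted p was 0.0188 (limma), so the call depends on those 3 libraries, which had 2549, 3664 and 2215.

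Variation among rats of 1 diet differed between the 8 members tested. The coefficient of variation (SD over mean) of Cideb was lowest, at 10.3% or less in either diet. For Plin3 it was 25.9% and 13.5%, and for G0s2 33.0% and 14.0%. Among these 8, Cidea varied most in CAS-fed rats, at 53.4%, against 35.1% in SPI-fed rats. Pnpla3 varied more in SPI-fed rats, 45.5% against 35.4%. Plin2 had 44.3% and 37.4%, while the low-count genes Cidec (41.7% and 51.9%) and Plin5 (39.9% and 50.7%) include more counting error. No test of a difference in spread was run.

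Relations between members were examined within each diet over 8 libraries, which gave 56 relations of 28 pairs. None passed the Benjamini-Hochberg adjustment over the 56, with a smallest adjusted p of 0.799 for Pearson's r and 0.854 for Spearman's rho (exact permutation tests over 40320 pairings, two-sided). At an unadjusted p under 0.05 for r there were 2, both in CAS-fed rats. Cidea and Plin3 had r = 0.776 (exact permutation p = 0.0308, adjusted 0.799) and rho = 0.619 (exact p = 0.115, adjusted 0.854) in CAS-fed rats, and r was 0.921 without CAS 3 and CAS 4. In SPI-fed rats r was 0.649 (exact p = 0.0893, adjusted 0.799) and rho 0.357 (exact p = 0.389, adjusted 0.958), and r was 0.364 without SPI 4 and SPI 7. Cideb and Plin3 had r = -0.72 (exact permutation p = 0.0398, adjusted 0.799) and rho = -0.57 (exact p = 0.151, adjusted 0.854) in CAS-fed rats, and r was -0.40 without CAS 2 and CAS 6. In each case the 2 libraries left out were those farthest from the median of the first gene, and the change in r was not tested.

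**Figure D2:**
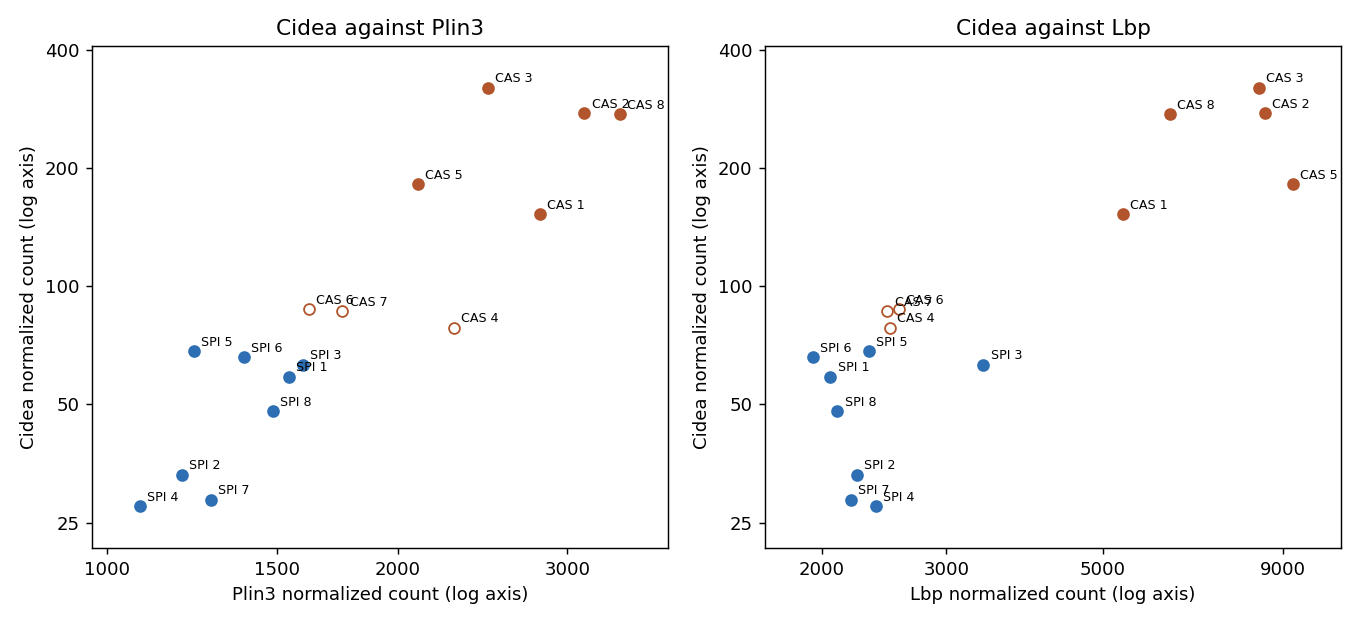
Cidea normalized count against that of Plin3 (left) and Lbp (right) on log axes, with 1 labelled point per rat, CAS in brown, SPI in blue and open circles for CAS 4, CAS 6 and CAS 7. For Lbp, these 3 libraries (2476 to 2572) sit below SPI 3 (3387) and above every other SPI library (1942 to 2387). Their Cidea values (78.5 to 87.3) stay above all SPI libraries.

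The ratio of Cidea to Plin3, added after the data were seen, had means of 0.0721 in CAS-fed and 0.0361 in SPI-fed rats. All 8 SPI libraries were below the CAS median, and 4 were below every CAS library. Genes were also ranked by likeness over all 16 libraries, with the diet difference left in and loci without a gene name skipped. The genes whose log2 values were most like Cidea by Pearson's r were Capn2 (0.918), Aldh1a1 (0.915), Ctr9 (0.913) and Plin3 (0.911). For Plin3 they were Perp (0.953), Krt8 (0.927), Gnl1 (0.916) and Cidea (0.911). Genes that differ between the diets in the same direction score high by this measure, so the values are a description. Krt8, a keratin of hepatocytes, had a mean of 10341 ± 3007 in CAS-fed and 5817 ± 632 in SPI-fed rats (log2 fold change -0.95, limma adjusted p = 0.00253). Capn2, a calpain protease, had a log2 fold change of -0.70 (limma adjusted p = 0.00831), and Perp, a membrane protein of cell junctions, had -0.44 (limma adjusted p = 0.00551).

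Beyond the members, 37 other genes of the droplet and of lipolysis were listed, of which 26 were in the table and 24 were tested. One was lower and none was higher at the adjusted threshold, with a list median of 0.03 against 0.01 for all genes tested. The one that fell was Acsl3, an acyl-CoA synthetase of nascent droplets. Its normalized count was 357 to 957 (median 581) in CAS-fed and 207 to 387 (median 311) in SPI-fed rats. Only CAS 4, at 357, was within the SPI range. Means were 635 ± 231 and 315 ± 59.9 (SD, n = 8 each), with a log2 fold change of -0.94 (SE 0.19, limma adjusted p = 0.00691), and the call held in each of 27 alternatives.

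At an unadjusted p under 0.05, 2 of the 24 were lower and 2 were higher, against 10% and 8.82% of all genes tested, and edgeR called 1 and DESeq2 called 2 as higher. Hsd17b13, a droplet enzyme of hepatocytes, had a mean of 7589 ± 1535 in CAS-fed and 9969 ± 1231 in SPI-fed rats, and its log2 fold change was 0.23 (limma adjusted p = 0.160). Its value depended on scaling, with 0.41 on the values as deposited (adjusted p = 0.0321) and 0.42 with upper-quartile scaling (adjusted p = 0.0261). Aup1, a protein of the endoplasmic reticulum and droplet surface, had 809.7 ± 101 and 989.8 ± 100.4, with a log2 fold change of 0.28 (limma adjusted p = 0.0764). Without CAS 4, CAS 6 and CAS 7, Hsd17b13 had 0.32 (limma adjusted p = 0.0467) and Aup1 had 0.39 (limma adjusted p = 0.0139), both past the threshold. Mgll, which cleaves monoglycerides in the last step of lipolysis, had a log2 fold change of -1.35 (limma adjusted p = 0.223) at counts of 0 to 33.9. Abhd5, the activator of Pnpla2, had -0.22 (limma adjusted p = 0.781).

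**Figure D3:**
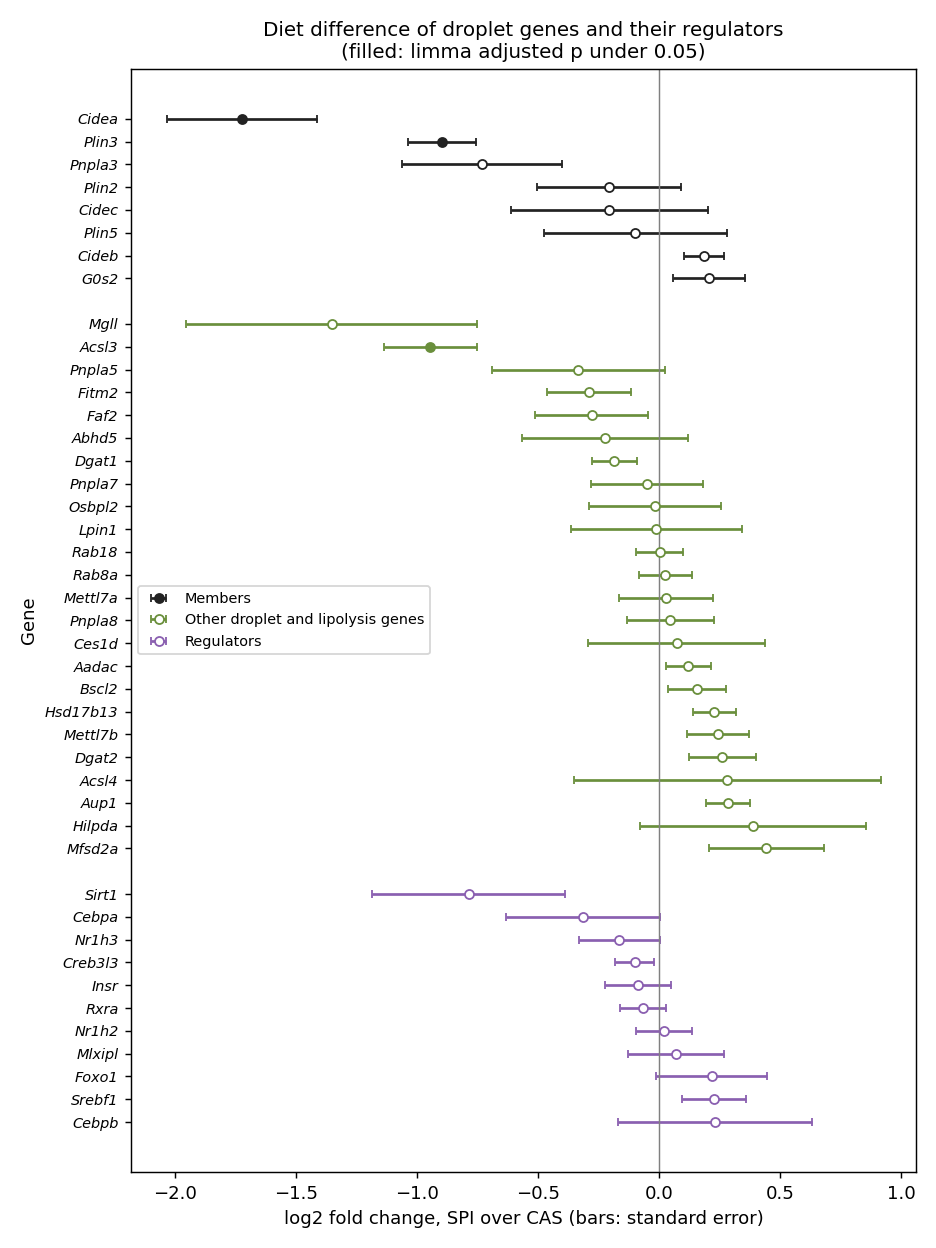
Log2 fold change (SPI over CAS) with its standard error for the 8 tested members, 24 other droplet and lipolysis genes and 11 regulators, filled where the adjusted p was under 0.05. Only Cidea, Plin3 and Acsl3 are filled, at -1.73, -0.90 and -0.94.

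Of 19 listed regulators of droplet genes, 12 were in the table and 11 were tested, and none was called in either direction by limma, edgeR or DESeq2, nor passed an unadjusted p of 0.05. The list median was -0.07. Pparg, the nuclear receptor that drives Cidea and Cidec in fatty mouse liver, had reads in 3 of 16 libraries, and Ppara was not analysed here. Sirt1, a deacetylase, had the smallest p, with a log2 fold change of -0.79 (limma adjusted p = 0.285). Srebf1, which drives fatty acid synthesis and Pnpla3 with insulin, had 0.23 (limma adjusted p = 0.372), and without CAS 4, CAS 6 and CAS 7 it had 0.44 (limma adjusted p = 0.0214). In markers of other cells of the liver no gene passed the adjusted test, with 7 Kupffer cell, 5 stellate cell and 6 endothelial markers tested (limma), and DESeq2 called 1 (Cd163, a macrophage receptor, higher) and edgeR 0. At an unadjusted p under 0.05, 2 Kupffer cell markers and 1 endothelial marker were higher and 3 stellate cell markers were lower, where 8.82% of all genes tested were higher and 10% lower. The stellate cell list had a median of -0.81. Summed counts of the stellate cell list were 3661 to 5643 in CAS-fed and 3115 to 5407 in SPI-fed rats. Col3a1 made up most of these sums, at means of 4459 and 3866, so they say little of the other stellate markers. The part of these cell types in the member differences was not tested.

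**Figure D4:**
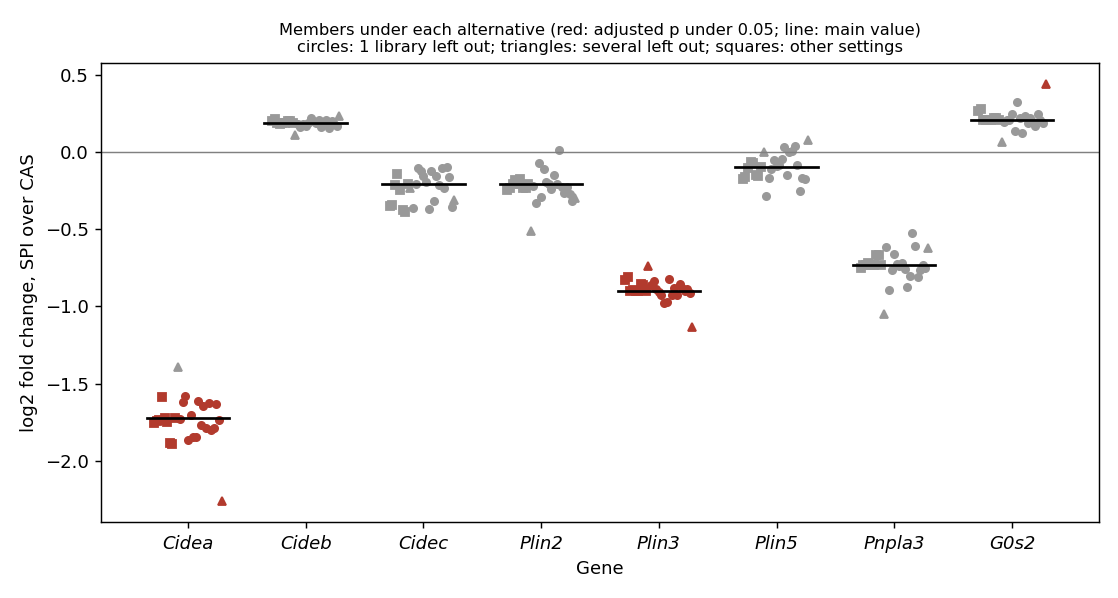
Log2 fold change (SPI over CAS) of the 8 members under each alternative, red where the adjusted p was under 0.05 and grey elsewhere, with a line at the main value. Plin3 is red throughout, Cidea is grey only without the libraries numbered 2 and 8 (-1.39), and G0s2 is red only without CAS 4, CAS 6 and CAS 7 (0.44).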

How the data were processed

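RNA of 16 livers was sequenced on an Illumina HiSeq. The signal values that the authors deposited are read counts per gene scaled by the size factor of each library, as DESeq2 writes them. The submitters' processing notes name Rnor_6.0, DESeq2 and FastQC without versions, whereas the methods of the study name CLC Genomics Workbench, an older assembly and log2 quantile values. The design text and the methods also differ on read length and pairing. Columns with the authors' mean, fold change, standard error, Wald statistic and p-values were not used. Each library was divided by its step, which gave whole reads within 0.05 for 100% of the lower values. Higher values were rounded to whole reads without this check.

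The main test was the two-sided limma test (trend, robust) of quantile-normalized log2(value + 1), for genes with 10 or more in 8 or more of the 16 libraries, with Benjamini-Hochberg adjustment over all genes tested. Fold changes are on this scale, which understates the change of low genes. The quantile step can also alter the change of the most abundant genes. Crp had a ratio of SPI to CAS means of 1.26 and a log2 fold change of 0.10. For Serpina3n these were 0.953 and -0.35. edgeR's quasi-likelihood test on the whole reads called 432 genes, against 390. The steps were tested on simulated data. The 95% intervals come from limma, and the depth of 14901365 to 21632979 reads limits genes near the filter.

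The members and lists were chosen with earlier results of these data known. Named genes were all members, the called genes of each list or those with the smallest p, and the 4 genes most like each called member. Loci without a gene name were skipped in choosing those 4. Alternatives were no quantile step, upper-quartile scaling, a pseudocount of 0.5 or 8, no filter or one at 50, edgeR, DESeq2, a replicate block, and leaving out libraries. The replicate numbers share a lane code between 1 CAS and 1 SPI library, though 2 and 7 carry the same code. With the diet means removed, same-numbered libraries correlated at -0.0950 to 0.0682, and 0 of 8 was most like its own number. Promoters came from RefSeq (GRCr8), and 8010 of 9645 symbols matched. Ratios to Pnpla2 were not analysed here, nor was the ratio of Plin4. Versions were DESeq2 1.42.0, edgeR 4.0.16, limma 3.58.1 and statmod 1.5.0, under R 4.3.3.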

Additional observations from a re-analysis of the deposited data

Results flagged for a closer look

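Among 62 groups of 8 libraries examined for a value set apart (chance sets apart about 1 in 20), 2 stood out, both in SPI 3 and neither in a member. Lbp had a normalized count of 3387 in SPI 3, with the next SPI library at 2387. Lcn2 (lipocalin 2, an acute phase protein) had 369.6 in SPI 3, with the next SPI library at 149.5. The same library held the lowest SPI values of Plin2 (19.0) and Pnpla3 (117). For Plin5 it held the lowest SPI normalized count (9.02), on 9 reads against 10 in SPI 4. After quantile normalization SPI 4 was the lowest for Plin5, at a log2 value of 3.13 against 3.41 in SPI 3.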

How the results depend on the processing

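Plin3 kept its direction and call in all 27 alternatives and Cidea in 26, the exception being the fit without the libraries numbered 2 and 8 (-1.39, adjusted p = 0.0510 from limma), where 1 member was lower. Leaving out 1 library at a time kept the 2 lower members and 0 higher ones. G0s2 was the 1 member called higher without CAS 4, CAS 6 and CAS 7. The log2 fold change of Plin2 was -0.33 to 0.014 with 1 library left out, changing sign without SPI 3, and that of Plin5 was -0.28 to 0.043, changing sign without CAS 8 (0.032), SPI 3 (0.0041), SPI 4 (0.043) and without CAS 4, CAS 6 and CAS 7 (0.077), and neither gene came near the threshold.

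Counts over all genes (158 higher, 232 lower) moved more: 255 higher and 222 lower with upper-quartile scaling, which made higher genes 53.5% of the calls against 40.5%, 310 and 364 with DESeq2, 45 and 67 when numbers 2 and 8 were left out, and 369 and 437 without CAS 4, CAS 6 and CAS 7. Fits without 1 library gave 98 to 202 higher and 135 to 287 lower. They moved a count by over 1.5 times without CAS 1 (152 lower), CAS 2 (100 and 135), CAS 3 (100 and 142), CAS 5 (98 and 148), SPI 3 (152 lower) and SPI 6 (103 higher). With the replicate block, which treats a shared number as a pairing, 97 genes were higher and 149 lower, no call of a member changed, and the counts of other droplet genes and regulators called stayed the same.

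Other droplet and lipolysis genes called higher were 0 in the main fit, 1 as deposited, 1 with upper-quartile scaling, 1 with edgeR, 2 with DESeq2, 2 without CAS 4, CAS 6 and CAS 7, and 0 to 1 with 1 library left out. These were Hsd17b13 and Aup1. Of the regulators, 1 (Srebf1) was higher without CAS 4, CAS 6 and CAS 7. Relations between members past the adjustment stayed at 0 on the values as deposited. The causes were not tested. Depth limits Cidec, Plin5 and Plin4, and Cidec and Plin5 had no fit under the filter at 50.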
